A study of Mus musculus with 17 samples.

Results

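The Hox genes of clusters A, B, C and D were followed in the periprostatic fat of male C57BL/6J mice on 3 diets. Members were all genes whose symbol is Hox followed by the cluster letter (a to d) and a number, each read from the probe set that carries its symbol alone and has the highest mean over the arrays. This gave 36 of the 22180 genes measured, with 9 genes in cluster A, 10 in B, 9 in C and 8 in D. Hoxa11 and Hoxd4 lay only on probe sets shared with another symbol and are described apart from the members. The choice used names and overall signal but no difference between diets.

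RNA came from 17 mice, each a separate animal hybridised to its own Affymetrix Mouse Gene 2.0 ST array. The 6 LFD mice were kept on low-fat chow (10 kcal% fat) and the 6 HFD mice on fat-rich chow (60 kcal% fat). Both groups began at 6 weeks of age and ate as much as they wanted for 12 weeks and then a further 7 weeks. The third group, HFD+CR with 5 mice, ate the high-fat diet freely for the first 12 weeks and then received 70% of the HFD group's intake for the last 7 weeks. All mice were wild type as far as the labels say, and all were killed at 25 weeks of age. A single depot was sampled, so the position of a depot in the body was not compared.

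Hox genes encode homeodomain transcription factors that give cells along the head-to-tail axis their positional identity. They lie in 4 clusters, on chromosomes 6, 11, 15 and 2 for A to D in the mouse, where low-numbered (3′) genes are switched on early and toward the head and high-numbered (5′) genes late and toward the tail. Polycomb proteins keep them silent and trithorax proteins keep them active, and retinoic acid is a classical inducer of the 3′ genes. Hox proteins bind DNA together with partners of the TALE family (Pbx, Meis and Pknox). In adult fat the pattern of Hox genes differs between depots and is kept by adipocytes and their precursors. Hoxc8, Hoxc9 and Hoxc10 are known as genes of white fat, and Hoxa5 as one that differs between depots.

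The deposited signals are log2 values per probe set (RMA) and ran from 4.55 to 14.4, with array medians between 7.03 and 7.15. The fat itself was evident on all arrays, with Adipoq, the adiponectin gene, at group means of 11.73 in LFD, 11.45 in HFD and 11.78 in HFD+CR. On 3 arrays (LFD mice 2 and 3 and HFD+CR mouse 2) the mean of the skeletal muscle markers or of the gland epithelium markers stood more than 1 log2 unit above that of the median array. Male germ cell markers stood high in HFD+CR mouse 1, and thermogenic adipocyte markers in LFD mice 3 and 6. In whole tissue, fewer cells of a type and less RNA per cell cannot be told apart.

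On all 17 arrays 20 of the 36 members lay above the array's median, as did 11511 of all 22180 genes. These were Hoxa2 to Hoxa7, Hoxa9, Hoxa13, Hoxb3 to Hoxb6, Hoxb9, Hoxc4, Hoxc6, Hoxc8 to Hoxc10, Hoxd8 and Hoxd10. Hoxb1, Hoxb7, Hoxb8, Hoxc11, Hoxc12, Hoxd1, Hoxd11, Hoxd12 and Hoxd13 lay below the median on every array, where a probe set may report background more than transcript. The files give no detection call, so a low signal is not read as absence. The other 7 members lay above the median on 2 to 15 arrays. The spread between mice of a group was somewhat wider than for other genes, with a median within-group SD of 0.14 log2 units over the members and 0.12 over all genes. Among those above the array median on all arrays it was 0.15 over the members and 0.11 over all genes.

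The first comparison asked how an obesogenic diet changed the Hox pattern of the depot. In HFD against LFD, 16 of 36 members fell and 0 rose (0 also at an unadjusted limma p under 0.05). They were Hoxa2 to Hoxa7 and Hoxa9, Hoxc4 to Hoxc6 and Hoxc8 to Hoxc10, and Hoxd3, Hoxd8 and Hoxd9. A call here means an adjusted p under 0.05 from a limma fit of the 3 groups, with the Benjamini-Hochberg method applied to all 22180 genes. This is 44.4% of the members, where 11.3% of all genes fell, 16.5% rose and 27.8% were called in either direction. The HFD and LFD mice did not overlap at all for 8 members (Hoxa2, Hoxa6, Hoxa7, Hoxc4, Hoxc6, Hoxc8, Hoxc9 and Hoxc10), all lower in HFD. That is 22.2% of the members, beside 5.21% of all genes that separated in this direction. None of the members separated with HFD higher, as 9.05% of all genes did. The median difference was -0.14 log2 units over the members and -0.0032 over all genes. By cluster the medians were -0.32 in A, -0.04 in B, -0.41 in C and -0.11 in D. By position, 3 of 7 members of paralog groups 1 to 3 fell, 9 of 14 of groups 4 to 8, and 4 of 15 of groups 9 to 13.

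**Figure D1:**
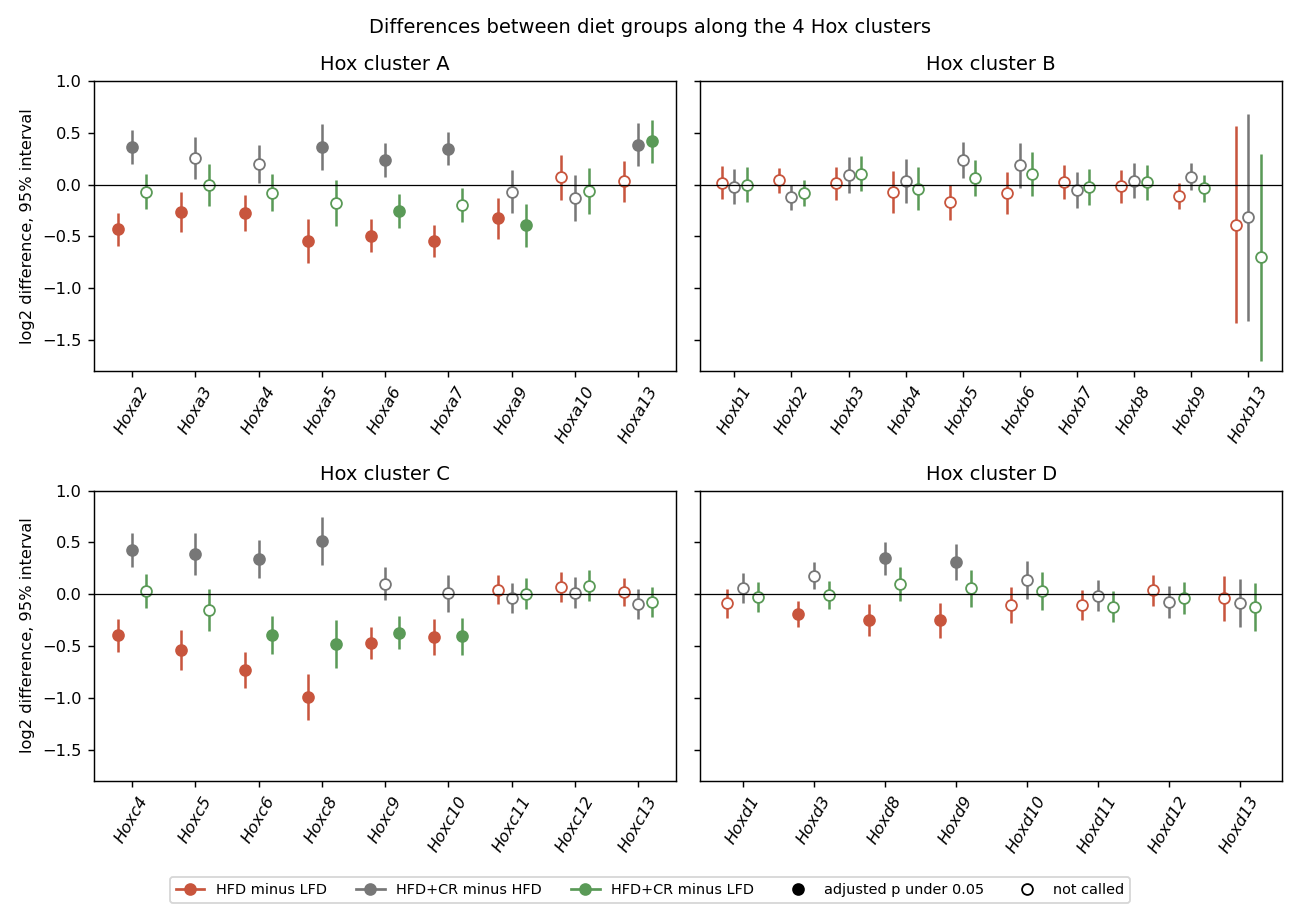
Differences in log2 signal between diet groups for each of the 36 members, ordered along clusters A to D by paralog group. Points are the fitted differences (HFD minus LFD, HFD+CR minus HFD, HFD+CR minus LFD), bars their 95% intervals, and filled points those with an adjusted p under 0.05. HFD lies below LFD through the 3′ part and middle of clusters A and C, and no point of cluster B is filled.

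In cluster C the difference between diets was largest at Hoxc8, a factor of the thoracic region that is known to hold back the brown fat programme. Hoxc8 in LFD ranged from 11.12 to 11.68 with a median of 11.32 log2 units, and in HFD from 10.10 to 10.57 with a median of 10.40. The 5 HFD+CR mice had 10.93, 10.81, 11.17, 10.70 and 10.79. Every HFD mouse lay below every other mouse, and the HFD+CR mice lay between the groups, with 1 of them inside the LFD range. The HFD mean was 0.99 ± 0.11 log2 units (SE, n = 6 and 6) below the LFD mean, a 1.99-fold difference (limma, adjusted p = 1.23e-06).

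Hoxc6, its 3′ neighbour in the thoracic part of the cluster, followed the same order. Its signal in LFD ran from 10.36 to 10.68 and in HFD from 9.63 to 10.07. The HFD+CR mice had 9.97, 10.16, 10.30, 10.17 and 10.13, so all lay below every LFD mouse and 1 lay inside the HFD range. The HFD mean was lower than the LFD mean by 0.73 ± 0.08 (SE, a 1.66-fold difference, limma adjusted p = 2.21e-06). Hoxc4 and Hoxc5, genes of the neck and upper trunk, differed by -0.40 ± 0.07 and -0.54 ± 0.09. Hoxc9 and Hoxc10, which mark the lower trunk, differed by -0.47 ± 0.07 and -0.41 ± 0.08. The 5′ end of the cluster, Hoxc11 to Hoxc13, was not called, with differences from 0.02 to 0.07 around signals near or below the array medians.

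**Figure D2:**
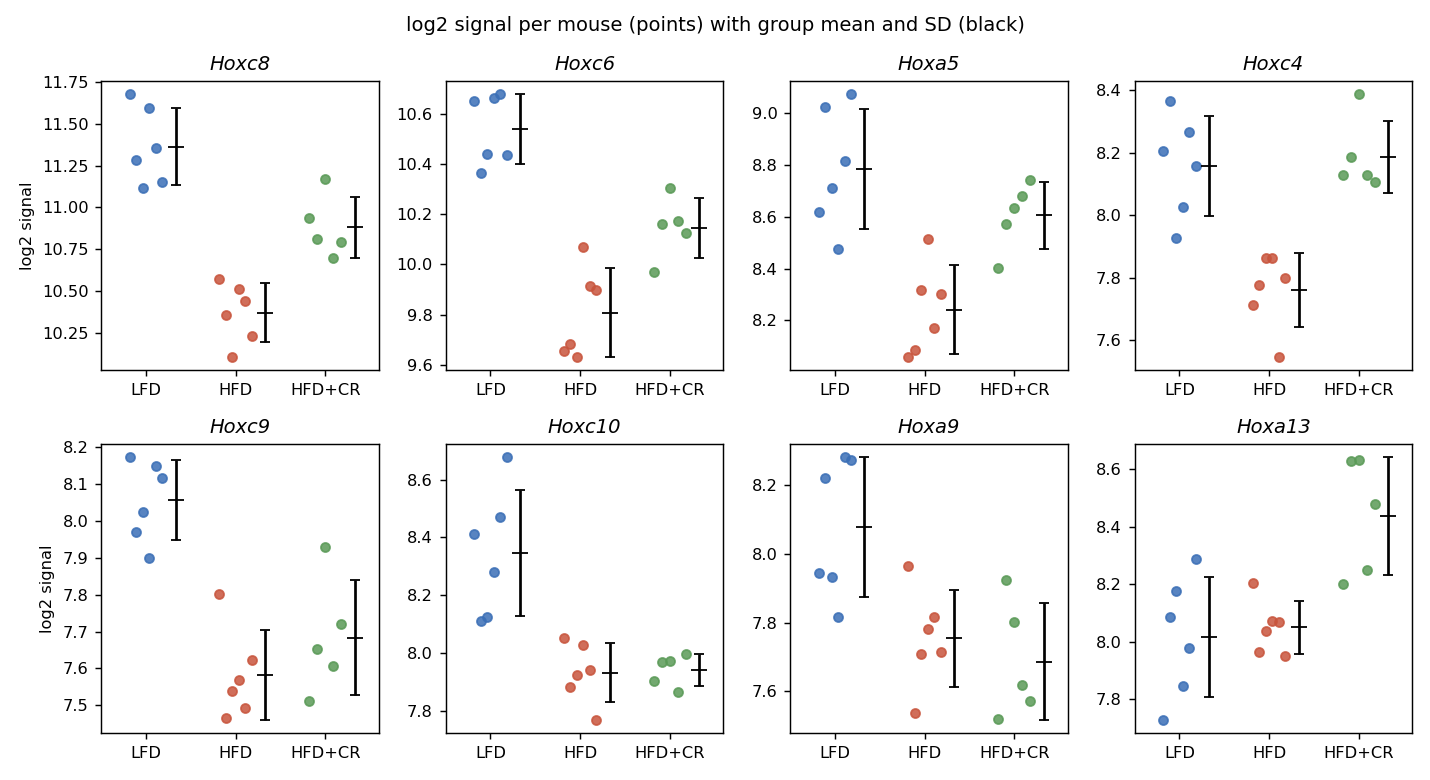
log2 signal of 8 members in each mouse (points, LFD and HFD 6 mice each, HFD+CR 5), with the group mean and SD in black and an axis of its own for each gene. Hoxc8, Hoxc6, Hoxa5 and Hoxc4 are lowest in HFD with HFD+CR above it, Hoxc10 and Hoxa9 sit as low in HFD+CR as in HFD, and Hoxa13 is highest in HFD+CR.

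In cluster A the members from Hoxa2 to Hoxa9 were all lower in HFD. Hoxa5, needed for lung and neck development, ranged in LFD from 8.47 to 9.07 with a median of 8.76. In HFD it ranged from 8.06 to 8.51 with a median of 8.24, and the HFD+CR mice had 8.40, 8.57, 8.63, 8.68 and 8.74. The HFD and LFD ranges touched only at their edges. Hoxa5 was lower in HFD than in LFD by 0.54 ± 0.10 (SE, limma adjusted p = 0.000403).

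Hoxa7, a trunk gene, ranged from 8.83 to 9.23 in LFD and from 8.30 to 8.63 in HFD, with 8.59, 8.88, 8.72, 8.76 and 8.93 in HFD+CR. No HFD mouse reached the lowest LFD mouse, and Hoxa7 was lower by 0.54 ± 0.07 (limma adjusted p = 1.70e-05). Hoxa2, which patterns the hindbrain and branchial arches, and Hoxa6 were lower by 0.43 ± 0.08 and 0.49 ± 0.07. Hoxa3, Hoxa4 and Hoxa9 were lower by 0.26 ± 0.09, 0.28 ± 0.08 and 0.32 ± 0.09. The Hoxa3 call rested on few mice, since its adjusted p was between 0.0553 and 0.101 when any of HFD mice 1, 2, 3 or 6 or LFD mice 1, 4, 5 or 6 was left out. It was also 0.101 without LFD mice 3 and 6, 0.0574 after a repeated quantile step and 0.065 in a fit of the LFD and HFD arrays alone. The Hoxa4 call was lost without the 3 arrays high in muscle or gland markers (-0.23, adjusted p = 0.0917), and likewise when LFD mice 3 and 6 were left out (-0.24, adjusted p = 0.0773). Hoxa10 (0.07 ± 0.10) and Hoxa13 (0.03 ± 0.09) at the 5′ end were not called.

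A promoter was matched in RefSeq (GRCm38.p6) for 20 of the 36 members, 22 promoters in all. The sequences of Hoxa2 and Hoxa5, which were both lower in HFD and higher again in HFD+CR, and of Hoxa13, which was not called in HFD against LFD, are shown as the 250 bases before the RefSeq start, all on the minus strand. Hoxa2 is chr6:52164832-52165081, Hoxa5 chr6:52204588-52204837 and Hoxa13 chr6:52260881-52261130. Capitals mark matches on either strand to any of 4 motifs. The site of a Pbx-Hox pair was searched as TGATNNAT. That of Meis proteins, partners of Hox factors, was searched as TGACAG. The TATA box of core promoters was searched as TATAAA and the other motif was the CCAAT box. No matches of different motifs overlap.
Hoxa2: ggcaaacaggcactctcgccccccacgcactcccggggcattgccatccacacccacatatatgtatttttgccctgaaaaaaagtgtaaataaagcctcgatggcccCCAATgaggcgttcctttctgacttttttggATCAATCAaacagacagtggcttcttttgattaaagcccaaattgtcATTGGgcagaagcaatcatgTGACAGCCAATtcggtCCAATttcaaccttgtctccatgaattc
Hoxa5: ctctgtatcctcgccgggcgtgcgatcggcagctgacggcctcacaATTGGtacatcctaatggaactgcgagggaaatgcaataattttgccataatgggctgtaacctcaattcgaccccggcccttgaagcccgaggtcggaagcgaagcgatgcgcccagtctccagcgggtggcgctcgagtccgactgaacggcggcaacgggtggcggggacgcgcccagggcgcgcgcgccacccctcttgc
Hoxa13: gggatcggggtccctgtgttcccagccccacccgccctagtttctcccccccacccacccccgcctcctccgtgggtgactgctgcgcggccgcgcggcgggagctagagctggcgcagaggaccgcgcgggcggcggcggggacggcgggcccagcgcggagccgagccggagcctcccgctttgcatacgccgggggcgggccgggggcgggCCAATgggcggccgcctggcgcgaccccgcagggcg
The Hoxa2 window held 1 Pbx-Hox pair match, 1 Meis match and 4 CCAAT boxes, and the Hoxa5 and Hoxa13 windows 1 CCAAT box each. Their CpG counts were 6, 28 and 35. Over the 22 Hox promoters the median was 12.5 CpG, beside 6 over all 32851 promoters of the table. It was 10 over the promoters of 10 members that fell in HFD and 17 over those of 10 members not called, a description only. A CCAAT box was found in 59.1% of the Hox promoters and 33.8% of all promoters, and a Pbx-Hox pair match in 18.2% and 7.68%. A Meis match was found in 9.09% and 15.9%, and a TATA box in 13.6% and 12.4%.

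In cluster D, 3 of 8 members fell in HFD, by small amounts. Hoxd8 ranged from 8.58 to 8.91 in LFD and from 8.27 to 8.66 in HFD, and the HFD+CR mice had 8.64, 8.77, 8.76, 8.83 and 9.03. The groups overlapped, and Hoxd8 was lower in HFD by 0.25 ± 0.07 (limma adjusted p = 0.0155). Hoxd9 was lower by 0.25 ± 0.08 and Hoxd3 by 0.19 ± 0.06, both at signals around the array medians. The Hoxd3 call was lost when HFD mouse 1 or 6 or LFD mouse 2 or 6 was left out (adjusted p from 0.0515 to 0.0686), and the Hoxd9 call when HFD mouse 1 or 3 or LFD mouse 6 was left out (0.0518 to 0.0619) or LFD mice 3 and 6 together (0.0734). Hoxd10 to Hoxd13, known for limb and urogenital patterning, were not called in any comparison.

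In cluster B, Hoxb1, Hoxb7 and Hoxb8 lay below the array median on every array. Hoxb2 and Hoxb13 lay above it on 5 and 2 arrays. Of all genes 27.8% were called in HFD against LFD, 19.0% in HFD+CR against HFD and 9.08% in HFD+CR against LFD. Of the cluster's 10 members 0 were called by limma in any of the 3 comparisons. At an unadjusted p under 0.05 there was 1, Hoxb5, in HFD against LFD and in HFD+CR against HFD, and 0 in HFD+CR against LFD. Hoxb5, a gene of the upper trunk, ranged from 7.86 to 8.21 in LFD and from 7.60 to 8.04 in HFD, with 8.01, 8.06, 8.22, 8.19 and 8.13 in HFD+CR. The ranges of all 3 groups overlapped. Its differences were -0.17 ± 0.08 in HFD against LFD (adjusted p = 0.127) and 0.24 ± 0.08 in HFD+CR against HFD (adjusted p = 0.0551). The latter passed the threshold when any of HFD+CR mouse 1, HFD mice 4, 5 and 6 or LFD mouse 4 was left out (0.0357 to 0.0466). A second Hoxb5 probe set gave 0.09 ± 0.06 and -0.02 ± 0.07 for the same comparisons. For 9 of the 10 members of cluster B the whole 95% interval of the HFD minus LFD difference lay within 0.5 log2 units of 0, beside 84.9% of all genes. Hoxb13 was the exception.

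The second comparison asked what restriction on the same fat-rich diet changed. In HFD+CR against HFD, 11 of 36 members rose and 0 fell (0 also at an unadjusted limma p under 0.05). This is 30.6% of the members, where 7.69% of all genes rose, 11.3% fell and 19.0% were called in either direction. The members were Hoxa2, Hoxa5, Hoxa6, Hoxa7, Hoxa13, Hoxc4, Hoxc5, Hoxc6, Hoxc8, Hoxd8 and Hoxd9. This comparison and the first share the HFD mice, so a low value there enters both. The groups were fully separated for Hoxa6, Hoxc4, Hoxc5 and Hoxc8 in this direction (11.1% of members, 5.42% of all genes). Hoxb13, which lay above the array median on 2 of the 17 arrays, was the only member separated the other way, beside 8.26% of all genes.

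Hoxc8 was 0.51 ± 0.11 log2 units higher in HFD+CR than in HFD (SE, n = 5 and 6, 1.43-fold, limma adjusted p = 0.00302). Hoxc4 ranged from 7.93 to 8.37 in LFD and from 7.55 to 7.86 in HFD, and the HFD+CR mice had 8.13, 8.19, 8.39, 8.13 and 8.11. The restricted mice thus all lay inside or just above the LFD range, and every HFD mouse lay below them. Hoxc4 was higher by 0.43 ± 0.08 (limma adjusted p = 0.000761), and Hoxc5 by 0.39 ± 0.10 and Hoxc6 by 0.34 ± 0.09. In cluster A, Hoxa2, Hoxa5 and Hoxa7 were higher by 0.36 ± 0.08, 0.36 ± 0.10 and 0.35 ± 0.08. Hoxd8 was higher by 0.35 ± 0.08 and Hoxd9 by 0.31 ± 0.08. Hoxa6 was higher by 0.24 ± 0.08 (adjusted p = 0.0413), a call lost (0.0545 to 0.0982) when any HFD+CR mouse or HFD mouse 1, 2, 5 or 6 was left out. The Hoxa5 call was lost without HFD+CR mouse 5 (0.33, adjusted p = 0.058).

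Hoxa9, Hoxc9 and Hoxc10, the posterior members among those lower in HFD than in LFD in clusters A and C, were not called in this comparison. Hoxc10 ranged from 8.11 to 8.68 in LFD and from 7.77 to 8.05 in HFD, and the HFD+CR mice had 7.90, 7.97, 7.97, 7.87 and 8.0. All HFD+CR mice lay inside the HFD range and below every LFD mouse. The HFD+CR minus HFD difference of Hoxc10 was 0.01 ± 0.08, with a 95% interval from -0.17 to 0.19. For Hoxc9 it was 0.10 ± 0.08 (interval -0.06 to 0.26) and for Hoxa9 -0.07 ± 0.10 (interval -0.27 to 0.14). Hoxa3, Hoxa4 and Hoxd3 were also not called, at 0.26 ± 0.10, 0.20 ± 0.09 and 0.18 ± 0.06 with adjusted p of 0.0718, 0.125 and 0.0574. The Hoxa3 value passed without HFD mouse 5 (0.33, adjusted p = 0.00719), and the Hoxd3 value without HFD mouse 4 or 5 or LFD mouse 3 (adjusted p from 0.025 to 0.0442).

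The third comparison set the restricted mice against those that had never eaten the fat-rich diet. In HFD+CR against LFD, 6 members were lower (Hoxa6, Hoxa9, Hoxc6, Hoxc8, Hoxc9 and Hoxc10) and 1 was higher (Hoxa13). These 7 are 19.4% of the members, where 3.28% of all genes were lower, 5.80% higher and 9.08% called in either direction. The groups did not overlap for Hoxa6, Hoxc6 and Hoxc10 (8.33% of members). Of all genes 6.67% did not overlap here, 2.43% with HFD+CR lower and 4.24% with HFD+CR higher. Hoxc8 was lower by 0.48 ± 0.11 (limma adjusted p = 0.00989), Hoxc10 by 0.40 ± 0.08, Hoxc6 by 0.39 ± 0.09, Hoxa9 by 0.39 ± 0.10 and Hoxc9 by 0.37 ± 0.08. The Hoxa9 call was lost without HFD+CR mouse 1 (-0.35, adjusted p = 0.053). Hoxa6 was lower by 0.26 ± 0.08 (adjusted p = 0.0483), which no longer passed when any HFD+CR mouse, HFD mouse 2, 3, 5 or 6, or LFD mouse 2, 3, 5 or 6 was left out (0.0506 to 0.105). Hoxa2 (-0.07 ± 0.08), Hoxa5 (-0.18 ± 0.10), Hoxa7 (-0.19 ± 0.08), Hoxc4 (0.03 ± 0.08) and Hoxc5 (-0.15 ± 0.10) were not called. Marker lists differed here too, with 5 of 12 macrophage markers higher in HFD+CR than in LFD and 4 of 8 thermogenic adipocyte markers lower. The array means of the thermogenic list ran from 7.93 to 10.62 in LFD and from 7.52 to 8.17 in HFD+CR. Without LFD mice 3 and 6, where that list stood highest, the Hoxa6 call was lost. The other 6 stayed called, Hoxa13 higher and the rest lower in HFD+CR.

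Hoxa13, which patterns the hindgut, the limb tips and the urogenital tract, had a pattern of its own among the members. It ranged from 7.73 to 8.29 in LFD and from 7.95 to 8.20 in HFD, and the HFD+CR mice had 8.20, 8.63, 8.63, 8.25 and 8.48. The HFD range lay inside that of LFD, and 3 of the 5 HFD+CR mice lay above all of them. HFD+CR was higher than HFD by 0.39 ± 0.10 (limma adjusted p = 0.00931) and higher than LFD by 0.42 ± 0.10 (adjusted p = 0.0111), while HFD minus LFD was 0.03 with a 95% interval from -0.17 to 0.23. Mesothelial markers moved in the same comparison, with 7 of 12 higher in HFD+CR than in HFD, beside 7.69% of all genes. Their array means ran from 8.67 to 9.30 in LFD, 8.54 to 9.10 in HFD and 8.79 to 9.56 in HFD+CR. With their mean in the fit, Hoxa13 was 0.24 higher in HFD+CR than in HFD (adjusted p = 0.282) and 0.34 higher than in LFD (adjusted p = 0.0481).

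**Figure D3:**
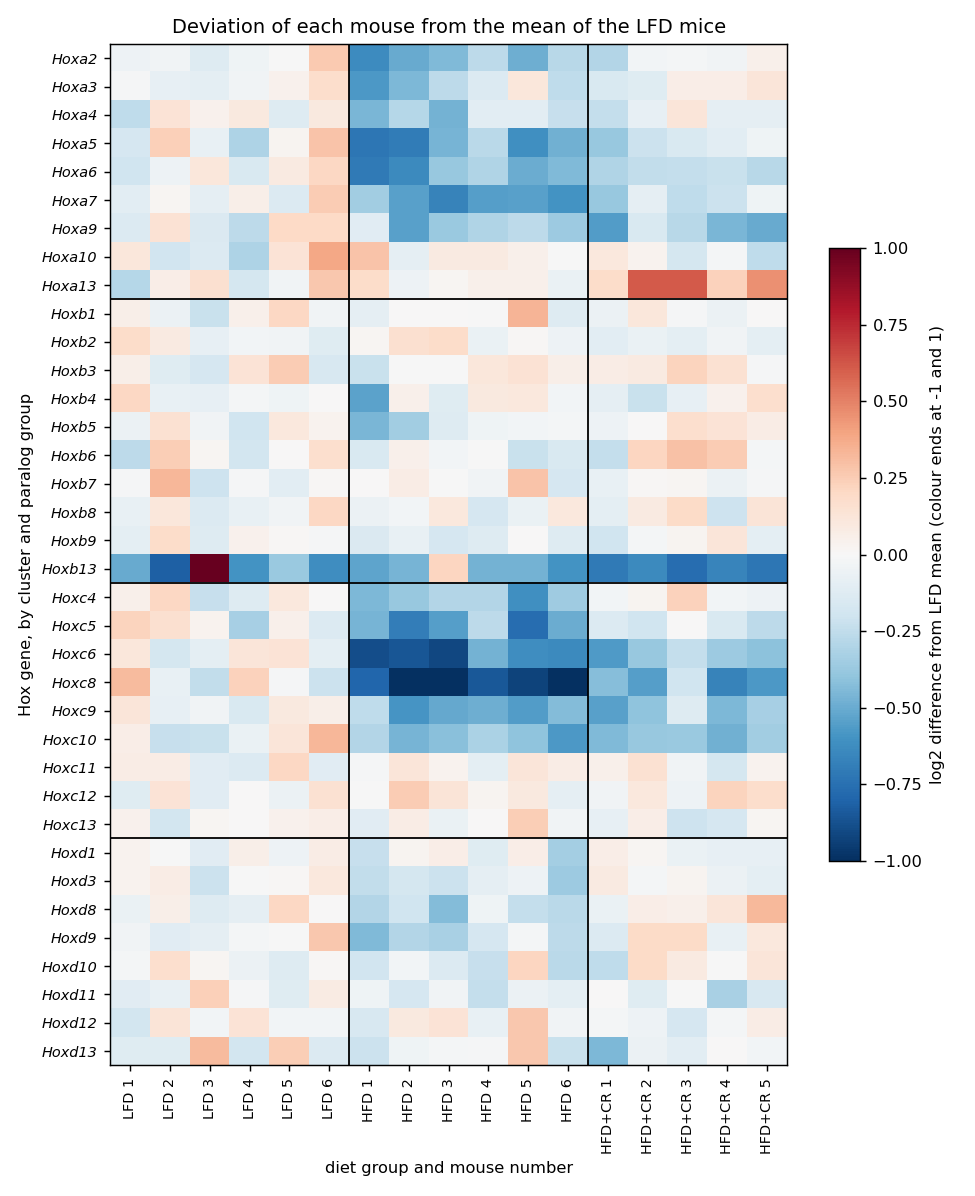
Deviation of each of the 17 mice (columns) from the LFD mean for each of the 36 members (rows, by cluster and paralog group), in log2 units, with the colour scale ending at -1 and 1. The HFD columns are blue from Hoxa2 to Hoxa9 and from Hoxc4 to Hoxc10. The HFD+CR columns are paler there but for Hoxa9, Hoxc9 and Hoxc10, and Hoxb13 is dark red in LFD mouse 3.

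Stability was described by the size of the differences. For 24 of 36 members (66.7%) the 95% interval of HFD minus LFD lay within 0.5 log2 units of 0, beside 84.9% of all genes. For HFD+CR minus HFD the members had 26 (72.2%, all genes 86.9%), and for HFD+CR minus LFD 29 (80.6%, all genes 90.4%). A difference of 1.5-fold or more that was also called was reached by 2 members, Hoxc6 and Hoxc8, in HFD against LFD, where 1132 of the 22180 genes (5.10%) reached it. That share of the members is near the background. In the other comparisons 0 members and 694 and 304 of all genes did. A test of any difference among the 3 groups (moderated F) called 16 members, 44.4% beside 30.1% of all genes. Of the 20 members above the array median on all arrays, 13 fell in HFD, beside 1856 of the 11511 genes with such signal.

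Hoxb13, a gene of the hindgut and of prostate epithelium, stood apart on 2 arrays. In LFD mouse 3 it was 9.78 against 6.04 to 6.49 in the other LFD mice. In HFD mouse 3 it was 7.08 against 6.27 to 6.40 in the rest of its group, and the HFD+CR mice had 6.15, 6.23, 6.10, 6.20 and 6.14. Spink1, a secretory protein of gland epithelium, was 13.29 in LFD mouse 3 and 11.47 in HFD mouse 3 and between 5.38 and 7.03 on the other arrays. Krt8, a keratin of simple epithelia, was 10.60 in LFD mouse 3 against 7.76 to 8.63 elsewhere. Upk1a, of bladder lining, was 12.10 there, 7.24 in HFD mouse 3 and 6.47 to 6.85 elsewhere. Pbsn, Tgm4, Svs4 and Svs5 of the gland list and Upk2 of the bladder list were not high in LFD mouse 3. The remaining genes of these lists are not shown by array. Against the median array, Pbsn stood at 0.10, Tgm4 at -0.07, Svs4 at 0.0074, Svs5 at -0.04 and Upk2 at -0.17. In HFD mouse 3 Pbsn stood at 0.41, Tgm4 at -0.01 and Upk2 at -0.05. Which epithelium these arrays hold was not tested. The mean of the 18 measured prostate and accessory gland markers was 1.64 and 0.74 log2 units above the median array in these mice. It ranged from 6.28 to 7.93 in LFD, from 6.15 to 7.02 in HFD and from 6.21 to 6.29 in HFD+CR. The Hoxb13 difference of HFD minus LFD was -0.39 ± 0.45, and 0.20 (adjusted p = 0.235) without LFD mouse 3. The calls in clusters A and C did not rest on this mouse: without it the same 16 members were called lower in HFD than in LFD.

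**Figure D4:**
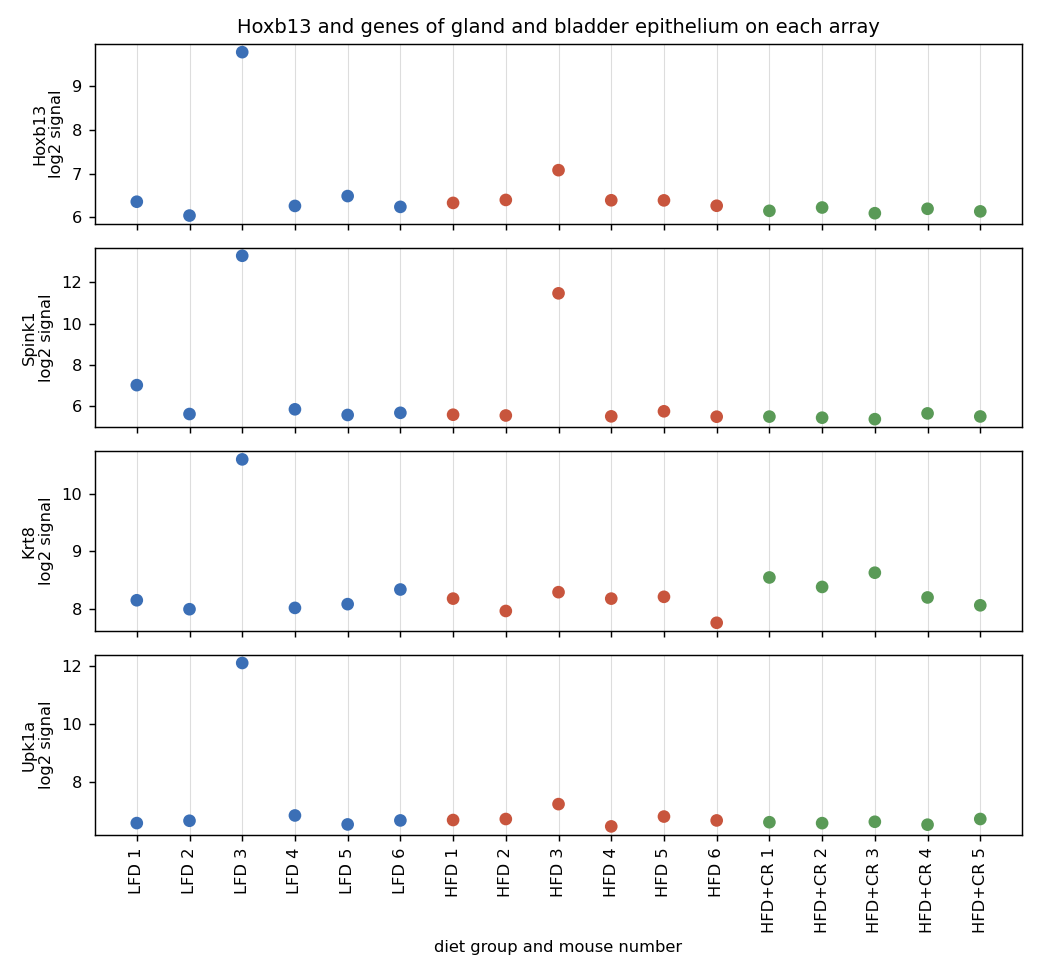
log2 signal of Hoxb13, Spink1, Krt8 and Upk1a on each of the 17 arrays, coloured by diet group, with an axis of its own for each gene. LFD mouse 3 is high for all 4 genes and HFD mouse 3 for Hoxb13 and Spink1.

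Markers of the cell types of fat moved with diet beside the Hox genes. Of 12 macrophage markers, 10 rose in HFD against LFD and 10 fell in HFD+CR against HFD, and their mean per array ran from 9.86 to 10.29 in LFD, from 11.18 to 11.62 in HFD and from 10.36 to 10.93 in HFD+CR. Of 11 adipocyte markers, 9 fell in HFD and 8 rose with restriction, with array means from 12.56 to 12.72 in LFD, 12.28 to 12.45 in HFD and 12.54 to 12.73 in HFD+CR. Of 11 progenitor and fibroblast markers, 6 rose in HFD and 3 fell with restriction, with array means from 10.18 to 10.41, 10.51 to 10.71 and 10.16 to 10.48. In HFD against LFD 16 Hox members and 9 adipocyte markers fell, and 6 progenitor and 10 macrophage markers rose. Of all genes 11.3% fell and 16.5% rose there, and 11.3% fell and 7.69% rose in HFD+CR against HFD. Which cells carry the Hox differences was not tested. With the progenitor mean as a covariate, 7 members fell in HFD against LFD, and with the adipocyte or the macrophage mean 0 were called in that comparison by limma. Those fits called 1319, 242 and 0 of all genes, beside 6165 without a covariate. The fitted differences did not all shrink. With the adipocyte and the macrophage mean, Hoxc8 was at -0.77 and -1.22 in HFD minus LFD, Hoxc6 at -0.50 and -0.69, Hoxc5 at -0.58 and -0.89 and Hoxc4 at -0.39 and -0.60. Hoxa5 was at -0.25 and -0.22, and some members changed sign. In HFD+CR against HFD, 3 members (Hoxa2, Hoxc4 and Hoxd8) were called with the mesothelial mean as a covariate, beside 1962 of all genes (8.85%), so the members' share was near the background. The means of all 3 lists separate HFD from LFD completely, so in these bulk samples diet and cell makeup cannot be told apart for the Hox genes.

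Among the 8 measured TALE partners of Hox proteins, 2 fell and 2 rose in HFD against LFD, where 11.3% of all genes fell and 16.5% rose. In HFD+CR against HFD 2 rose, beside 7.69% of all genes. Meis1 and Meis2, which bind DNA with Hox and Pbx proteins, were lower by 0.58 ± 0.09 and 0.47 ± 0.08 (limma adjusted p = 7.65e-05 and 0.000331). Both rose in HFD+CR against HFD, by 0.42 ± 0.09 and 0.33 ± 0.09. Pbx3 and Pknox1 rose in HFD by 0.24 ± 0.05 and 0.19 ± 0.06. The Pknox1 call was lost without the 3 arrays high in muscle or gland markers (0.14, adjusted p = 0.11) and when LFD mice 3 and 6 were left out (0.18, adjusted p = 0.0528). Pbx3 was also 0.24 ± 0.05 higher in HFD+CR than in LFD.

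Regulators of Hox chromatin gave calls in both directions. Of 27 Polycomb genes, 5 rose and 5 fell in HFD against LFD, and 5 rose and 4 fell in HFD+CR against HFD. Over all genes 16.5% rose and 11.3% fell in the first comparison, and 7.69% rose and 11.3% fell in the second. Cbx7, which reads the Polycomb mark on histone H3, was lower in HFD by 0.54 ± 0.08 and higher in HFD+CR than in HFD by 0.59 ± 0.09. Phf1 and Phc3 fell in HFD by 0.47 ± 0.07 and 0.28 ± 0.06 and rose with restriction by 0.35 ± 0.07 and 0.27 ± 0.06. Of 15 trithorax and H3K27 demethylase genes, 6 fell and 0 rose in HFD, with Kmt2c (a histone methyltransferase) lower by 0.30 ± 0.05 and Kdm6b (an H3K27 demethylase) by 0.27 ± 0.05. In HFD+CR against HFD 2 of them rose, Kmt2c by 0.22 ± 0.06 and Kdm6b by 0.20 ± 0.05. The mean of all Kdm6b probe sets gave 0.08 (adjusted p = 0.237), so its probe sets differed.

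Of 17 genes of the retinoic acid pathway, 4 rose and 4 fell in HFD against LFD, and 2 rose and 2 fell in HFD+CR against HFD. The shares over all genes were 16.5% and 11.3% in the first comparison and 7.69% and 11.3% in the second. The enzymes that make retinoic acid divided. Aldh1a2 and Aldh1a3 rose in HFD by 0.64 ± 0.12 and 0.52 ± 0.12. Aldh1a1, the form abundant in adipocytes, fell by 0.32 ± 0.08 and was 0.45 ± 0.08 higher with restriction. Aldh1a2 was lower with restriction by 0.42 ± 0.13, a call lost without HFD+CR mouse 4 or 5 or HFD mouse 1 or 4 (adjusted p from 0.0522 to 0.0917).

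Of 28 other developmental genes that differ between depots, 3 rose and 4 fell in HFD against LFD, and 2 rose and 1 fell in HFD+CR against HFD. The shares over all genes were 16.5% and 11.3%, then 7.69% and 11.3%, so this list stayed near or below the background. Prrx1, a marker of mesenchymal progenitors, rose by 1.02 ± 0.06 and was 0.60 ± 0.07 lower in HFD+CR than in HFD. Osr1 and Nr2f2, transcription factors of trunk mesoderm, fell by 0.47 ± 0.10 and 0.42 ± 0.09 and were 0.51 ± 0.11 and 0.31 ± 0.10 higher with restriction. The Nr2f2 rise was lost without HFD+CR mouse 3 or 5 or HFD mouse 1 or 2 (adjusted p from 0.0597 to 0.076).

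The genes flanking the clusters went both ways. Of 13 measured neighbours, 4 rose and 2 fell in HFD against LFD, and 2 rose and 4 fell in HFD+CR against HFD. The shares over all genes were 16.5% and 11.3% in the first comparison and 7.69% and 11.3% in the second. At the 3′ side of cluster A, Skap2 and Snx10 rose by 0.53 ± 0.06 and 0.38 ± 0.07 in HFD while Hoxa2 to Hoxa7 fell, and both were lower with restriction, by 0.44 ± 0.07 and 0.30 ± 0.07. Hibadh, at the other side, fell by 0.34 ± 0.05 and was 0.23 ± 0.05 higher with restriction. Skap2 codes for an adaptor protein of myeloid cells. Whether its rise goes with the macrophage values above was not tested.

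Noncoding genes inside the clusters were measured in lists of 4, too few to set their counts apart from the background. Of all genes 27.8% were called in HFD against LFD and 19.0% in HFD+CR against HFD. Of 4 long noncoding RNAs with a probe set of their own, 0 were called in HFD against LFD, and 2610035D17Rik was 0.34 ± 0.08 higher in HFD+CR than in HFD. Of 4 miRNA precursors, 0 were called in HFD against LFD and Mir10b, which lies in cluster D, was 0.28 ± 0.07 higher in HFD+CR than in HFD (limma adjusted p = 0.00737), at signals from 4.73 to 5.25 that lie far below the array medians. The array reads the precursor transcripts and not the mature forms. The mature miR-10b-5p (chr2:74726074-74726096, plus strand) and miR-196a-5p, which is known to target Hoxc8, are shown from RefSeq with the seed, bases 2 to 8, in capitals.
mmu-miR-10b-5p: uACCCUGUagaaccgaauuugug
mmu-miR-196a-5p: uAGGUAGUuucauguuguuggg
The precursors Mir196a-1 and Mir196a-2 had group means of 6.51 and 6.05 in LFD, 6.27 and 5.84 in HFD, and 6.14 and 5.83 in HFD+CR, and were not called in any comparison.

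Between HFD+CR and LFD 3.28% of all genes were lower, 5.80% higher and 9.08% called in either direction. The counts of these small lists are not read as apart from that background. Pbx3 was the only TALE gene called, 2 Polycomb genes were higher, 1 retinoic acid gene was lower, and 2 of the other depot genes were higher and 1 lower. Prrx1 was among the latter, 0.42 ± 0.07 higher. Of the neighbours, the trithorax group, the long noncoding RNAs and the miRNA precursors 0 were called by limma.

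Probe sets shared by a Hox gene and another symbol were read apart from the members. The set shared by Mira and Hoxa7 was lower in HFD than in LFD by 0.46 ± 0.06 and higher in HFD+CR than in HFD by 0.41 ± 0.06, as the probe set of Hoxa7 alone was. The set shared by Hoxd4 and Hoxd3 was lower in HFD by 0.23 ± 0.07 and higher in HFD+CR than in HFD by 0.47 ± 0.07. The remaining 5 shared sets, those of Hoxa11 among them, were not called in any comparison.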

How the data were processed

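Total RNA of periprostatic fat from 17 mice was measured, and per the labels' protocols only RNA with an integrity number above 7 was used. The authors deposited log2 signals for 33793 probe sets. The submitters' processing notes name R 3.5.0, RMA and limma without saying what each did. RMA summarises the probes of a set after background correction and quantile normalization, which narrows differences at low signal. The annotation gave exactly 1 symbol for 23521 probe sets, and the one with the highest mean per gene gave 22180 genes. All were tested at any brightness on the scale deposited. A linear model of the 3 groups (limma 3.58.1, R 4.3.3, moderated by eBayes, all 17 arrays, 14 residual and 3.63 prior degrees of freedom) gave 3 contrasts and a moderated F, adjusted by Benjamini-Hochberg over all genes and tested on simulated data first. The comparisons share groups and are not independent. With no counts in the files, precision depends on how many arrays there are.

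Named genes are all Hox members and, of each pathway list and comparison, up to 3 of the called genes with the largest differences. The 8 pathway lists and 14 marker lists and the members were chosen with earlier results of these data known. Fits with adipocyte or mesothelial markers were added after seeing the data. Positions belong to RefSeq GRCm38.p6, since the files name no build. Of the members, 16 without a RefSeq promoter in the table used here have no sequence shown. Plots used Python 3.11.15 with matplotlib 3.10.9.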

Additional observations from a re-analysis of the deposited data

Results flagged for a closer look

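In each group the highest and lowest mouse of each member was compared with the others by Dixon's test. Chance flags about 1 group in 20. Of the 108 groups, 12 held a mouse far from the rest, in 9 genes.

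The largest gaps were those of Hoxb13, which was 9.78 log2 units in LFD mouse 3. HFD mouse 3 was second at 7.08, and both arrays were high in Spink1. In LFD mouse 3 Hoxd3 was also low, at 7.01. LFD mouse 6 was high for Hoxa2 (8.16) and Hoxd9 (7.25). HFD+CR mouse 1 was low for Hoxa2 (7.61) and Hoxd13 (6.01). HFD mouse 1 was low for Hoxb4 (7.57), and LFD mouse 1 high for Hoxb4 (8.31). HFD+CR mouse 3 was high for Hoxc4 (8.39). HFD mouse 5 was high for Hoxb1 (6.43) and LFD mouse 2 low for Hoxc13 (6.96), at signals below the array medians. For Hoxa2, the HFD minus LFD call held without LFD mouse 6 and the HFD+CR minus HFD call held without HFD+CR mouse 1.

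A signal outside the members also stood out. The probe set shared by Hoxd4 and Hoxd3 was 0.24 ± 0.07 log2 units higher in HFD+CR than in LFD (limma, adjusted p = 0.0455 over all 33793 probe sets). The probe set of Hoxd3 alone gave -0.0097 ± 0.06 for the same comparison. Which of the genes the shared set reports was not tested.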

How the results depend on the processing

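Leaving out each mouse in turn gave 13 to 16 members called in HFD against LFD, 9 to 13 in HFD+CR against HFD, 5 to 7 in HFD+CR against LFD and 14 to 17 in the F test. The same fits called 24.3% to 29.0% of all genes in HFD against LFD. They called 15.2% to 20.7% in HFD+CR against HFD and 26.2% to 31.3% in the F test. In HFD+CR against LFD 9.08% of all genes were called with all mice. That share was, for example, 6.79% without HFD+CR mouse 1 and 10.6% without LFD mouse 2. Under all settings run, 0 members were called higher in HFD than in LFD and 0 lower in HFD+CR than in HFD. An adjusted p under 0.01 gave 10 members in HFD against LFD and 4 in HFD+CR against LFD, beside 4252 (19.2%) and 967 (4.36%) of all genes. A 1.5-fold minimum gave 2, 0 and 0 in the 3 comparisons, beside 1132 (5.10%), 694 and 304 of all genes. With the macrophage mean as a covariate the counts were 0, 0 and 1, and 1 in the F test, with 0, 0, 12 and 846 of all genes called. With the progenitor mean they were 7 and 3 in the first comparisons and 8 in the F test, beside 1319 (5.95%), 1379 (6.22%) and 2545 (11.5%) of all genes. With the adipocyte mean (added after seeing the data) they were 0 and 0 there and 6 in the F test, with 242, 0 and 1649 of all genes. With the mesothelial mean (also added) 3 were called in HFD+CR against HFD, beside 1962 (8.85%) of all genes. The other settings stayed within 1.5 times of the counts reported. With array weights 15 members were called in HFD+CR against HFD, all of them higher, beside 27.7% of all genes called in either direction.

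The titles number the mice within groups and name no pairs, and correlations alone cannot decide whether the numbers pair them. The 16 same-numbered pairs correlated between -0.13 and 0.49 (median 0.056). The 80 pairs of other numbers correlated between -0.33 and 0.35 (median -0.025). A correlation over 0.1 was seen in 7 of the 16 and 17 of the 80. Of 17 arrays, 6 correlated best with their own number. With the mouse number as a replicate block the counts were 15, 13, 5 and 16. Beside the 15, 13 and 16 stood 27.3%, 18.1% and 28.9% of all genes called under this block. For the 5, in HFD+CR against LFD, the share of all genes called without the block was 9.08%. No call gained or lost under it is read as a change in the effect.

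Signs turned as follows (log2), the cause not tested. Macrophage covariate, HFD minus LFD: Hoxa3 0.11, Hoxa4 0.18, Hoxa7 0.017, Hoxa9 0.50, Hoxb13 0.57, Hoxc10 0.016, Hoxd9 0.48, Meis2 0.012, Nr2f2 0.11, Pknox1 -0.068 and Skap2 -0.067. HFD+CR minus HFD: Hoxa13 -0.20, Hoxa4 -0.047, Hoxc10 -0.22 and Hoxd9 -0.093. HFD+CR minus LFD: Hoxa2 0.048, Hoxa7 0.060 and Hoxc4 -0.064. Adipocyte covariate, HFD minus LFD: Hoxa3 0.094, Hoxc10 0.017, Hoxd8 0.10 and Hoxd9 0.036. HFD+CR minus HFD: Hoxa3 -0.074, Hoxc10 -0.39 and Hoxc9 -0.056. Progenitor covariate: Hoxa9 0.11 (HFD+CR minus HFD), Hoxb13 0.59 (HFD minus LFD) and Hoxc4 -0.041 (HFD+CR minus LFD). Hoxb13 in HFD minus LFD was 0.0079 with array weights, 0.14 without the arrays high in muscle or gland markers, 0.19 without LFD mice 3 and 6, and -0.55 to 0.20 with 1 mouse left out.

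Values near 0 also crossed it. Hoxa13 in HFD minus LFD ran from -0.025 to 0.087 with 1 mouse left out and was -0.0023 with arrays centred. Hoxc10 in HFD+CR minus HFD ran from -0.024 to 0.032 and was -0.0019 after a repeated quantile step, -0.0067 with the gland mean and -0.00087 with the mesothelial mean. Hoxc4 in HFD+CR minus LFD ran from -0.022 to 0.070 and was -0.0033 with array weights, -0.010 with the gland mean and -0.029 without LFD mice 3 and 6.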
